A study of Homo sapiens with 2 samples.

Results

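The 56 genes described here act in the G2 phase of the cell cycle and in mitosis, and they were taken by name from the count matrix, which listed 16251 genes. They were measured in the cell line MDA-MB-453, which was established from a human breast cancer and which the labels give as wild type and describe as triple-negative. A single culture received water as vehicle and another received IL1β and TNFα at 10 ng/ml, both for 24 hours in medium with fetal bovine serum. Single cells were captured in droplets, and the 3′ ends of their transcripts were sequenced and counted as unique molecular identifiers (UMIs). All 56 genes had UMIs in both libraries. The vehicle library held 2822 cells and 58587996 UMIs and the cytokine library 3163 cells and 69592446 UMIs, and 8 cell barcodes occurred in both. Each condition was 1 library without a replicate, so no test was made, and the 95% intervals given are exact ones for counting error alone.

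Markers of the line were present in both libraries. EPCAM was at 227 and 242 counts per 1000000 UMIs (CPM) in the vehicle and cytokine libraries, and ERBB2 at 129 and 208 CPM. Of the 6 immune markers fixed, ITGAM alone had a row in the matrix, at 0 UMIs in vehicle cells and 2.18 CPM in treated cells. The hormone receptor genes ESR1 and PGR had no row in the filtered matrix.

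A dividing cell copies its DNA in S phase, grows and checks the copy in G2, and separates the chromosomes in mitosis. CDK1 bound to a cyclin drives entry into mitosis, Aurora and Polo-like kinases build the spindle, and the anaphase-promoting complex ends mitosis by tagging cyclins and securin for destruction. The transcripts of most of these proteins are made late in the cycle and are low in G1, and the transcription factors FOXM1 and MYBL2, together with the DREAM complex, are known to time them.

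All 56 genes were lower in the cytokine library over all cells. Their summed level was 3177 CPM in vehicle cells and 790 CPM in treated cells, 4.02-fold lower (log2 ratio -2.01, interval -2.02 to -1.99). Of the 56, 54 were at least 2-fold lower with the interval on that side, and the same held for 6.5% of the 8794 genes whose mean CPM over both libraries was 5 or more. None was 2-fold higher (3.81% of the same genes). The median log2 ratio was -3.12 for the 56 genes and -0.19 for those 8794 genes. The ratios ran from -4.76 for PIMREG to -0.47 for CBX5, and 49 of the 56 had a mean CPM of 5 or more. In such sums fewer dividing cells and less RNA per cell cannot be told apart, and the values within phases and per cell follow further on.

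The 6 cyclins, CDK1 and partners summed to 519 CPM in vehicle cells and 126 CPM in treated cells. CDK1, the kinase that starts mitosis, was at 51.6 and 7.27 CPM, 7.09-fold lower in the cytokine library. CCNA2, which encodes the cyclin of S and G2 phase, was at 31.7 and 2.47 CPM, 12.8-fold lower. CCNB2, a cyclin of mitosis, was at 51.5 and 8.54 CPM, 6.04-fold lower. The small CDK-binding proteins CKS1B and CKS2 had the highest levels of the group and smaller differences. CKS1B was at 280 and 66.2 CPM (4.22-fold lower), and CKS2 at 98.6 and 41.6 CPM (2.37-fold lower). CDC25C, the phosphatase that activates CDK1, was rare, at 5.53 and 0.388 CPM.

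All 7 mitotic kinases were at least 2-fold lower, with a median log2 ratio of -3.26. PLK1, the Polo-like kinase of spindle assembly, was at 35.4 and 2.77 CPM in the vehicle and cytokine libraries, 12.8-fold lower. AURKB, the kinase of the chromosomal passenger complex, was at 15.003 and 1.15 CPM, 13.1-fold lower. AURKA, which acts at the spindle poles, differed least in the group, at 53.3 and 11.1 CPM (4.79-fold lower). The other kinases, BUB1, TTK, NEK2 and PBK, were between 7.48-fold and 12.8-fold lower.

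Among the regulators of protein destruction, UBE2C, the ubiquitin-conjugating enzyme of the anaphase-promoting complex, was at 137 CPM in vehicle cells and 15.7 CPM in treated cells, 8.71-fold lower. CDC20, which activates that complex, was at 53.6 and 7.62 CPM, 7.04-fold lower. G2E3, a ubiquitin ligase, was the least different of the 4, at 21.2 and 8.74 CPM.

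The 8 genes of the centromere and kinetochore, the chromosome region and protein assembly that the spindle grips, had the lowest median log2 ratio of the 9 role groups, -3.46, and were 8.07-fold to 13.8-fold lower. CENPF was at 177 CPM in vehicle cells and 15.5 CPM in treated cells. CENPA, the histone variant that marks the centromere, was at 39.2 and 2.85 CPM, 13.8-fold lower. BIRC5 (survivin), a subunit of the passenger complex, was at 90.5 and 10.3 CPM. HJURP, which loads CENPA, was at 14.6 and 1.28 CPM.

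The 4 kinesin motors were 5.23-fold to 11.98-fold lower. KIF2C, which removes tubulin from microtubule ends, was at 14.1 and 1.18 CPM, and KIF23, a motor of the central spindle, at 23.8 and 2.62 CPM. The 13 spindle and microtubule genes spanned a wider range. DLGAP5, a spindle assembly factor, was at 19.99 and 1.21 CPM (16.6-fold lower), and ASPM, a spindle pole protein, at 60.3 and 4.21 CPM (14.3-fold lower). TUBB4B, a β-tubulin and the member of highest level, was at 399 and 207 CPM, 1.92-fold lower and so under the 2-fold limit. Between them stood NUSAP1, which bundles microtubules, at 126 and 14.96 CPM. Of the cytokinesis genes, CEP55 was at 22.3 and 1.72 CPM (12.9-fold lower), and ECT2, which activates RhoA at the cleavage site, at 58.1 and 23.4 CPM (2.48-fold lower).

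The 8 genes of chromosome structure held both ends of the order. PIMREG was at 7.02 CPM in vehicle cells and 0.259 CPM in treated cells, with 18 UMIs left in the latter. TOP2A, the topoisomerase that untangles sister chromatids, was at 61.2 and 3.12 CPM, 19.6-fold lower. MKI67, whose protein Ki-67 coats mitotic chromosomes and is a common stain for proliferating cells, was at 134 and 11.7 CPM, 11.5-fold lower. SMC4, a condensin subunit, was at 109 and 40.0 CPM (2.72-fold lower). CBX5, the heterochromatin protein HP1α, was at 123 and 89.2 CPM (1.38-fold lower). The nuclear envelope genes TMPO (103 and 24.4 CPM) and LBR (52.8 and 15.3 CPM) were 4.24-fold and 3.45-fold lower.

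**Figure D1:**
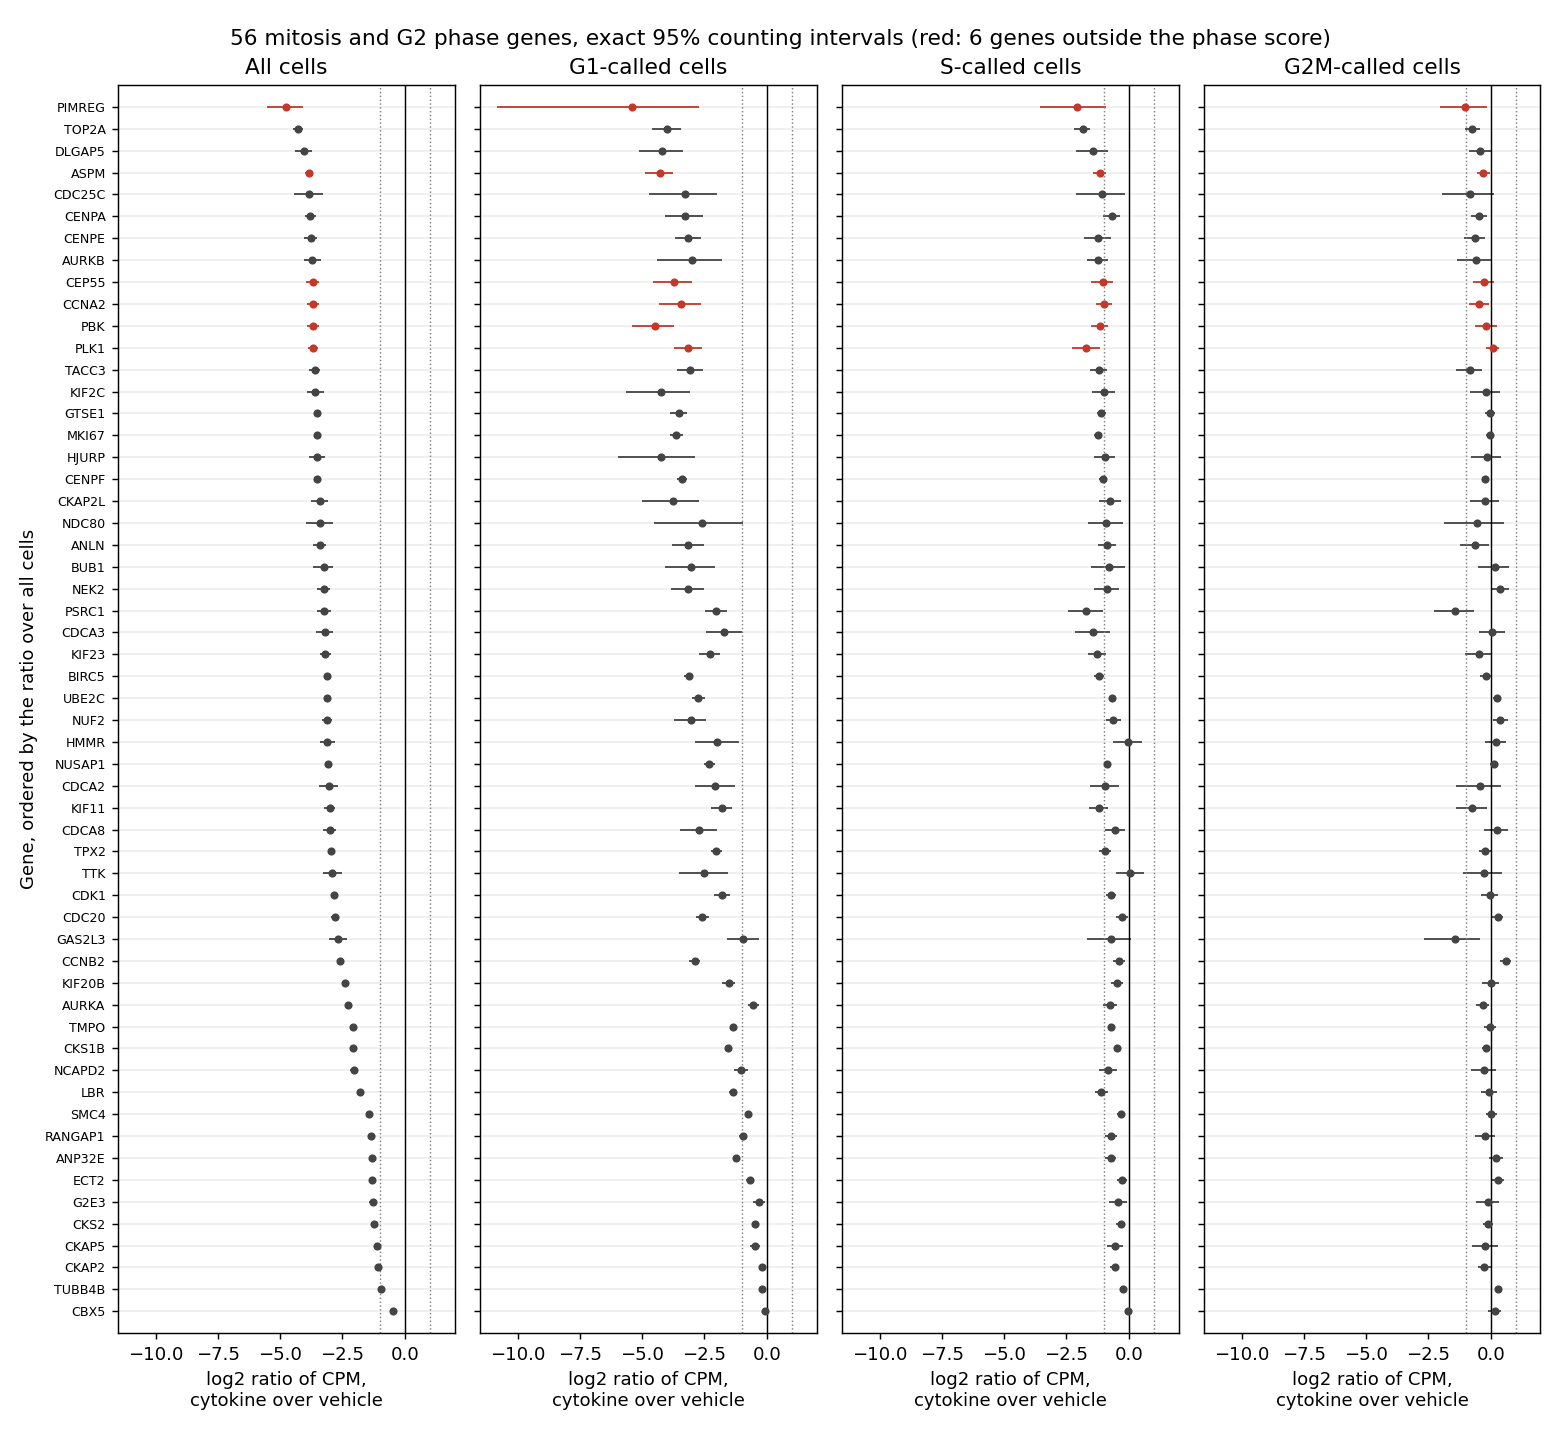
Log2 ratio of CPM, cytokine over vehicle, for each of the 56 genes (rows, ordered by the ratio over all cells) in all cells and in cells called G1, S and G2M by the authors. Points are the ratios, bars their exact 95% counting intervals, dotted lines the 2-fold limits, and red marks the 6 genes outside the deposited phase score. The points lie left of 0 for all 56 genes over all cells and spread around 0 in G2M-called cells, where the median is -0.20.

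Genes with a larger contrast between G2M-called and G1-called vehicle cells tended to have lower ratios over all cells. In the vehicle library the CPM in G2M-called over G1-called cells was 1.69 for CBX5, 12.4 at the median of the 56 genes and 47.9 for CENPA. Across the 56 genes that ratio, on the log2 scale, went with the log2 ratio of the libraries over all cells with r = -0.85 (Spearman rho = -0.78). Both quantities used the vehicle counts and the genes are not independent, so the correlation is a description. CBX5, CKAP5 and TUBB4B were among the 6 genes of lowest G2M over G1 ratio and among the 4 that differed least between the libraries.

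The promoters of the members that RefSeq's table on GRCh38.p14 held were read for 2 short motifs that are known in genes of G2 and mitosis. TTTGAA or TTCGAA is the core of the cell cycle genes homology region, through which DREAM and the MYBL2 and FOXM1 complex act, and CCAAT is the element bound by NF-Y. Each was searched on both strands from 250 bases before to 50 bases after the start. The table had 47 of the 56 genes and lacked AURKA, TTK, PBK, UBE2C, BIRC5, TPX2, CDCA2, ANP32E and PIMREG. TTTGAA or TTCGAA occurred in 34 of the 47 (72.3%), against 16.6% of all 27305 promoters in the table and 10.97% of the 10890 whose gene was in the matrix. CCAAT also occurred in 34 of the 47 (72.3%), against 35.7% of all promoters. Both motifs together occurred in 29 of the 47 (61.7%), against 6.58% of all promoters.

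The promoters of 8 members are shown to let the motifs be seen. They were chosen from the lowest ratio over all cells upward, among the genes of the naming rule given with the processing. Genes named outside that rule, such as CENPA and MKI67, were not considered. Each line gives, 5′ to 3′ on the strand of the gene, the part of the 200 bases before the start that lies in no exon of GENCODE 44. Capitals mark the core motif in either form and the CCAAT element, each on either strand.
TOP2A: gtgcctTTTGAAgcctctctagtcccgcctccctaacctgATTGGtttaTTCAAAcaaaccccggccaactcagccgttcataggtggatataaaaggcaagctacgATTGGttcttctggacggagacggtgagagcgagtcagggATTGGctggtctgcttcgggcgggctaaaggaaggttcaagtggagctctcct
DLGAP5: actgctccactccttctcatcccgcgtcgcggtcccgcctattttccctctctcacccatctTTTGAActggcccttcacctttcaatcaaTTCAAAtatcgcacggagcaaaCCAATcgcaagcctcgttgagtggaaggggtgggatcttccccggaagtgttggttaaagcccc
ASPM: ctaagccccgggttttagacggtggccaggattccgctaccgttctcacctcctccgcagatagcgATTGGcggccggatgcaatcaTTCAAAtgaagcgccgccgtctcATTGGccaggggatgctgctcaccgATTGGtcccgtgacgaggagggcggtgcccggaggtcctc
CEP55: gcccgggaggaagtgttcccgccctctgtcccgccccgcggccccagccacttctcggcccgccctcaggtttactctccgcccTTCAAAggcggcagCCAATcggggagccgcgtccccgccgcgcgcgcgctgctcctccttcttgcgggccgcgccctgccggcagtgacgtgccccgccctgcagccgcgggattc
HJURP: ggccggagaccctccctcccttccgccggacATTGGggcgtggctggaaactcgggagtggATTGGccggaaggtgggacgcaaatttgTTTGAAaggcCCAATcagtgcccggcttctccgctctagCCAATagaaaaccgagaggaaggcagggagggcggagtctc
CDC20: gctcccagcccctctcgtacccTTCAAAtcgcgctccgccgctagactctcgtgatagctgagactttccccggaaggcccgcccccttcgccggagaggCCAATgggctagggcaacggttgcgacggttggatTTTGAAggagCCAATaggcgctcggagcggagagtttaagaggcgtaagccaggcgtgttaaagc
CCNB2: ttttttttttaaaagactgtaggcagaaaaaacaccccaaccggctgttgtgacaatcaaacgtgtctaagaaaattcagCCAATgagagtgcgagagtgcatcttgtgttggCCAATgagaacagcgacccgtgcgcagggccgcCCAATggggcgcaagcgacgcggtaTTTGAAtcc
ECT2: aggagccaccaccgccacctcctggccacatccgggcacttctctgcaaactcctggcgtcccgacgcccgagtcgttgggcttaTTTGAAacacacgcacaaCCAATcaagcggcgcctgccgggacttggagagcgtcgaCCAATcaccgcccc
The TOP2A stretch was at chr17:40417897-40418096 on the minus strand. That of DLGAP5 was at chr14:55191609-55191785 on the minus strand. The ASPM stretch was at chr1:197146695-197146869 on the minus strand. That of CEP55 was at chr10:93496412-93496611 on the plus strand. The HJURP stretch was at chr2:233854567-233854735 on the minus strand. That of CDC20 was at chr1:43358781-43358980 on the plus strand. The CCNB2 stretch was at chr15:59104946-59105125 on the plus strand. That of ECT2 was at chr3:172750526-172750681 on the plus strand. These stretches overlapped no other annotated gene. The core motif began 194 and 151 bases before the start in TOP2A, 113 in ASPM, 116 in CEP55, 111 in HJURP and 115 in ECT2. In CCNB2 it began 29 bases before the start, and in CDC20 178 and 65 bases before it. For 6 further genes, PLK1, PSRC1, KIF23, HMMR, CKS1B and SMC4, the motif before the start lay in an annotated exon and the sequence is not printed. The motif did not go with the size of the difference between libraries. The median log2 ratio over all cells was -3.15 in the 34 genes with the core motif and -3.24 in the 13 without it, and ECT2, whose sequence holds it, was at -1.31. A match of letters is not a shown binding site.

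The authors deposited a phase call for each cell. G2M-called cells made up 18.3% of the vehicle library (517 cells, interval 16.9% to 19.8%) and 1.26% of the cytokine library (40 cells, 0.905% to 1.72%). S-called cells made up 45.1% (1273 cells) and 10.2% (324 cells), and G1-called cells 36.6% (1032 cells) and 88.5% (2799 cells). These calls were made from the same transcripts. A linear fit of the deposited G2M score on the counts of 59 genes had an R² of 0.998, in which 50 of the 56 genes carried weights of 0.0140 to 0.0259 and the other 6, CCNA2, PLK1, PBK, ASPM, CEP55 and PIMREG, weights of -0.000981 to 0.00457. The level of the 50 genes within a deposited phase is therefore partly set by the call. For each phase the 6 genes outside the score are given, and phases called without any of the 56 genes follow in a later paragraph. The results by cluster and per cell have neither beside them. The study removed cells with many genes, the highest left having 4995, and cells with 4800 genes or more made up 9.86% of G2M-called vehicle cells and 7.5% of G2M-called cytokine-treated cells. The part of that limit in the results was not tested.

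Within G1-called cells the 56 genes summed to 1193 CPM in vehicle cells and 588 CPM in treated cells, 2.03-fold lower. Of the 56, 45 were at least 2-fold lower, against 7.0% of 16247 genes at any level in G1-called cells. The share was 3.63% of the 8632 genes at a mean CPM of 5 or more. None of the 56 was 2-fold higher (4.01% of those 8632 genes). The median log2 ratio was -2.60, against -0.14 over those 8632 genes. Levels were low in both libraries, and 27 of the 56 had a mean CPM of 5 or more. PBK, a mitotic kinase, was at 5.54 CPM in the vehicle (111 UMIs) and 0.244 CPM in the cytokine library (15 UMIs), 22.7-fold lower. ASPM was at 10.5 and 0.536 CPM (19.6-fold lower), HJURP at 1.55 and 0.0812 CPM, KIF2C at 2.14 and 0.114 CPM, and DLGAP5 at 4.14 and 0.227 CPM. PIMREG had 14 UMIs in vehicle cells and 1 UMI in treated cells (log2 ratio -5.43, -10.83 to -2.71). At the other end of the order the genes were close to equal. CBX5 was at 86.4 and 82.3 CPM, CKAP2, a microtubule-binding protein, at 39.0 and 34.3 CPM, TUBB4B at 212 and 185 CPM, G2E3 at 9.92 and 7.91 CPM and CKAP5, a microtubule polymerase, at 13.7 and 9.93 CPM. AURKA was also little different here, at 12.5 and 8.59 CPM, while AURKB was at 1.05 and 0.130 CPM. The 6 genes outside the score summed to 29.3 and 1.998 CPM, 14.6-fold lower.

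Within S-called cells the 56 genes summed to 2625 CPM in vehicle cells and 1703 CPM in treated cells, 1.54-fold lower. Of the 56, 20 were at least 2-fold lower, against 1.76% of the 8849 genes at a mean CPM of 5 or more in S-called cells. That level was reached by 49 of the 56, and of these 14 of 44 genes in the score and 4 of 5 outside it were lower. None was 2-fold higher (2.81%), and the median log2 ratio was -0.86, against -0.15 over all those 8849 genes. With TMM or median-of-ratios scaling 15 of the 56 were at least 2-fold lower, and the share of all genes was not computed under these scalings. PIMREG was at 3.51 CPM in vehicle cells and 0.832 CPM in treated cells (96 and 6 UMIs), and TOP2A at 44.6 and 12.3 CPM, 3.61-fold lower. PSRC1, a spindle microtubule protein, was at 8.998 and 2.77 CPM, PLK1 at 13.5 and 4.16 CPM, and DLGAP5 at 8.63 and 3.19 CPM. The 5 highest ratios were near 0. ECT2 was at 46.6 and 39.0 CPM, TUBB4B at 359 and 304 CPM, HMMR, a spindle-associated hyaluronan receptor, at 4.83 and 4.71 CPM, CBX5 at 141 and 139 CPM, and TTK, a spindle checkpoint kinase, at 4.79 and 4.99 CPM. The 6 genes outside the score summed to 121 and 53.2 CPM, 2.26-fold lower.

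Within G2M-called cells the summed level of the 56 genes was close to equal. It came to 8080 CPM in the 517 vehicle cells and 7834 CPM in the 40 cytokine-treated cells (log2 ratio -0.04, -0.08 to -0.01). Of the 56, 3 were at least 2-fold lower, against 2.09% of 8864 genes in G2M-called cells, and none was 2-fold higher (3.45%). The median log2 ratio was -0.20, against 0.01 over those genes. GAS2L3, which links actin and microtubules, was at 26.3 CPM in vehicle cells and 9.67 CPM in treated cells on 8 UMIs (log2 ratio -1.45, -2.67 to -0.45). PSRC1 was at 48.4 and 18.1 CPM on 15 UMIs (-1.42, -2.26 to -0.68), and PIMREG at 26.9 and 13.3 CPM on 11 UMIs (-1.02, -2.03 to -0.16). TACC3, a spindle stabilizer, was at 73.6 and 41.1 CPM, CDC25C at 19.2 and 10.9 CPM, and TOP2A at 198 and 118 CPM (-0.74, -1.05 to -0.45). Of the 56 ratios 39 were below 0, with 15 intervals wholly below 0. How many of the 8864 genes had an interval on a side of 0 was not counted. The intervals hold counting error alone and narrow with the number of UMIs, so such counts are a description. An interval above 0 was seen for 7 members. CCNB2 was at 145 and 221 CPM (0.61, 0.38 to 0.83), NUF2, a kinetochore subunit, at 93.4 and 122 CPM, NEK2, a centrosome kinase, at 68.5 and 89.4 CPM, CDC20 at 180 and 220 CPM, and TUBB4B at 829 and 1007 CPM. The remaining pair were ECT2, at 134 and 162 CPM, and UBE2C, at 400.1 and 475 CPM. In counts simulated at this depth, with 8880 genes, 37 of 50 genes set to 0.4 of their level and 46 of 50 set to 0.25 were recovered. In the same counts 99 unchanged genes were called. The counts were drawn from the means of all vehicle cells without variation between cells, so they too hold counting error alone. The 6 genes outside the score summed to 612 and 522 CPM (log2 ratio -0.23, -0.37 to -0.09). The sum was not alike across the authors' clusters. In G2M-called cells of cluster 2 it was 6294 CPM in 200 vehicle cells and 8654 CPM in 26 treated cells, and in those of cluster 5 it was 7268 CPM in 164 and 5862 CPM in 14 cells. The G2M-called vehicle cells of clusters 0, 1, 3 and 4 were at 10438 to 12972 CPM, and no treated cell of these clusters was G2M-called.

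The near equality of the sums in G2M-called cells depended on how G2M was called. When phases were called on cells thinned to 15000 UMIs from S phase genes and 50 other mitotic genes, with none of the 56, 1344 vehicle cells (52.0%) and 168 cytokine-treated cells (5.54%) were called G2M. In these cells the 56 genes summed to 4160 CPM in vehicle cells and 2529 CPM in treated cells, 1.64-fold lower, all 56 had a log2 ratio below 0 and 21 were at least 2-fold lower, against 2.36% of 8786 genes. The median log2 ratio was -0.90. PSRC1 was at 22.9 and 5.29 CPM (-2.12, -2.84 to -1.48), TACC3 at 35.5 and 11.6 CPM, and TOP2A at 92.1 and 30.7 CPM (-1.59, -1.87 to -1.32). The 7 genes with an interval above 0 in the deposited phase turned below 0, among them CCNB2 at 75.6 and 67.7 CPM (-0.16, -0.35 to 0.03) and CDC20 at 78.8 and 55.8 CPM (-0.50, -0.71 to -0.29). PSRC1, GAS2L3, PIMREG and TACC3 were among the 7 lowest ratios under both calls. Of the 1344 vehicle cells 468 were also G2M-called by the authors, and of the 168 treated cells 34, so the wider class held a different mix of cells. G1 called this way held 274 vehicle cells (10.6%) at 904 CPM and 2564 treated cells (84.5%) at 569 CPM. S called this way held 968 vehicle cells (37.4%) at 2515 CPM and 301 treated cells (9.92%) at 1622 CPM. In the G1 and S phases called this way, 38 and 24 of the 56 genes were at least 2-fold lower. The shares were 3.51% and 2.02% of genes at a mean CPM of 5 or more, a level that 25 and 47 of the 56 reached. At that level 13 of the 25 were lower in G1. In S 15 of 42 genes in the score and 5 of 5 outside it were lower at that level.

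**Figure D2:**
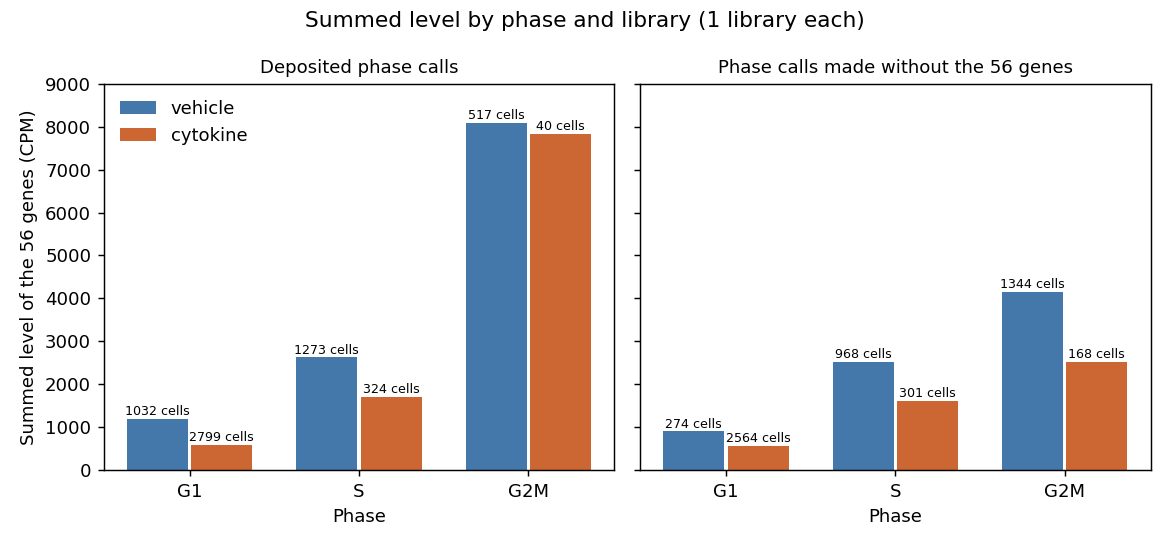
Summed CPM of the 56 genes (vertical axis) in each phase for the vehicle and cytokine libraries, by the deposited phase calls (left) and by calls made without the 56 genes (right), with the number of cells above each bar. In deposited G2M cells the bars stand at 8080 and 7834 CPM, and in the right panel at 4160 and 2529 CPM.

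The phase shares alone gave a smaller difference over all cells than was observed. Had each phase kept its vehicle level and only the shares of UMIs by phase been those of the cytokine library, the sum would have been 1423 CPM, 2.23-fold below the vehicle's 3177 CPM. The observed 790 CPM was 1.80-fold lower still. The phases here are the deposited ones, whose calls used 50 of these genes. With CPM by total UMIs, all 56 genes were below the level that the shares give, with a median log2 distance of -1.40. BIRC5 was farthest below, expected at 52.3 CPM and observed at 10.3 CPM, followed by PIMREG (1.30 and 0.259 CPM), DLGAP5 (5.46 and 1.21 CPM) and TOP2A (13.8 and 3.12 CPM). CBX5 was nearest, expected at 92.8 CPM and observed at 89.2 CPM, and TUBB4B was expected at 235 and observed at 207 CPM. With the phases called without the 56 genes, 55 of the 56 were below expectation and the median distance was -1.27. The distance was not computed for all genes or under other scalings. CBX5 lay at -0.06 in the deposited phases, and TMM moved log2 ratios in G1-called cells by 0.16. A phase call is also a coarse class. The median G2M score of G1-called cells was -0.83 in the vehicle and -1.13 in the cytokine library. The distances are therefore a description, and their cause was not tested.

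**Figure D3:**
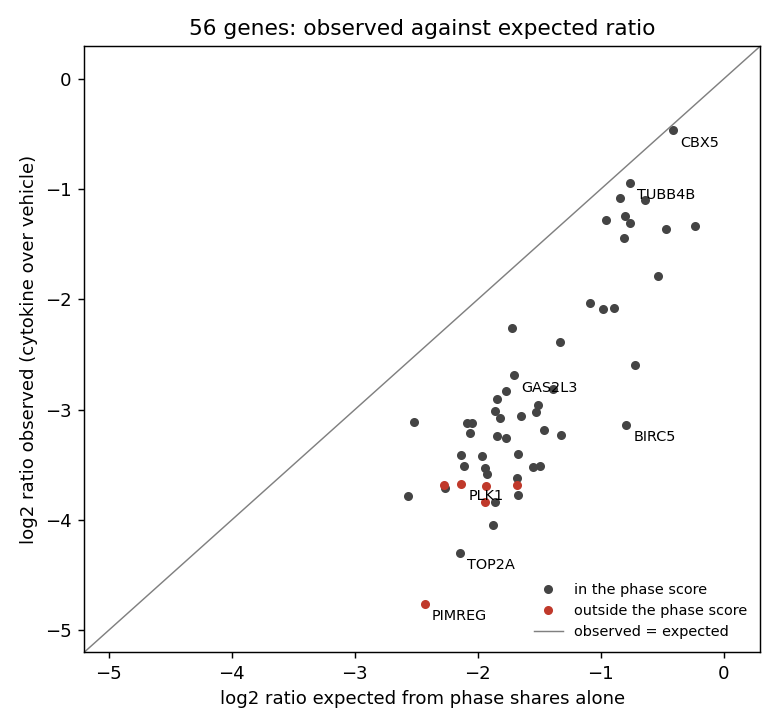
Each point is a gene, with the log2 ratio expected from the phase shares alone on the horizontal axis and the observed log2 ratio, cytokine over vehicle, on the vertical axis. All 56 points lie below the line of equality, CBX5 closest to it, and the 6 genes outside the phase score (red) lie at observed ratios of -3.68 or lower.

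Counted per cell, the 56 genes gave a median of 31 UMIs in vehicle cells and 9 UMIs in treated cells once all cells were brought to a depth of 15000 UMIs by thinning (2586 and 3033 cells kept). Cells with 50 or more such UMIs were 31.1% of the vehicle cells (803 cells, 29.3% to 32.9%) and 1.88% of the cytokine-treated cells (57 cells, 1.43% to 2.43%). Cells with 100 or more were 10.8% (280 cells) and 0.593% (18 cells). Without thinning, 42.4% and 3.86% of the cells had 50 or more. The 95th percentile was 150 UMIs in vehicle cells and 27 UMIs in treated cells, and the highest cell reached 284 and 241 UMIs.

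**Figure D4:**
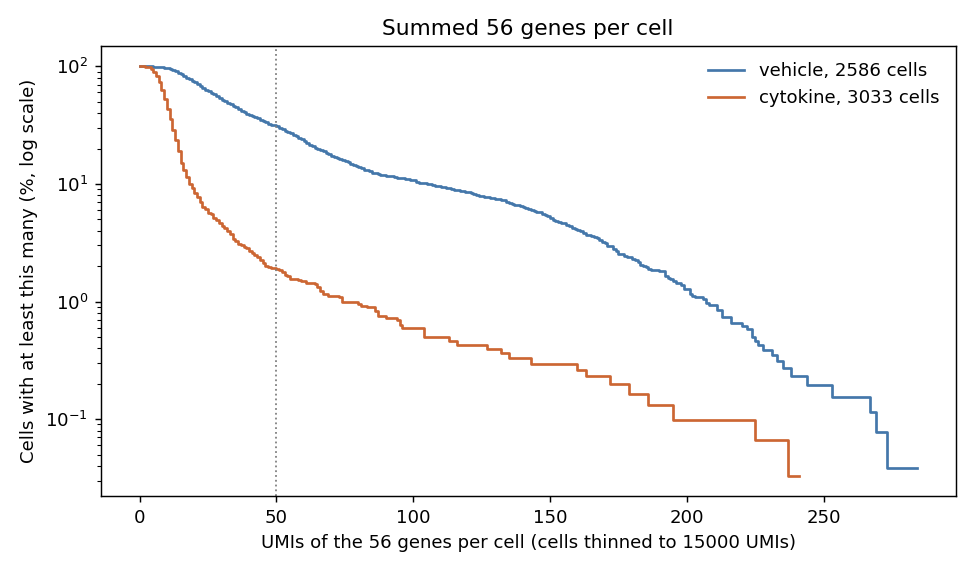
Percent of cells (vertical axis, log scale) with at least the number of UMIs of the 56 genes given on the horizontal axis, for the 2586 vehicle and 3033 cytokine-treated cells thinned to 15000 UMIs. At the dotted line of 50 UMIs the curves stand at 31.1% and 1.88%.

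The mix of the 56 transcripts in these high cells was compared as each gene's share of their summed UMIs. Among cells with 50 or more, 2 of the 56 genes had an at least 2-fold lower share in the cytokine library and none a 2-fold higher share, and 44 intervals spanned 0. PSRC1 made up 0.549% of the summed UMIs in the vehicle and 0.218% in the cytokine library (12 UMIs), and PIMREG 0.302% and 0.145% (8 UMIs). Among cells with 100 or more, PIMREG was not 2-fold lower (log2 ratio -0.75, -2.08 to 0.32), and the 2 genes were PSRC1 and TACC3 (0.865% and 0.390%). In the cells with 50 or more, TOP2A made up 2.28% and 1.42% (log2 ratio -0.69, -1.03 to -0.36). On the other side, in the same cells with 50 or more, CCNB2 made up 1.61% and 2.49% (0.63, 0.36 to 0.88), CDC20 1.87% and 2.58%, and UBE2C 4.91% and 6.25%. Such cells were chosen by the sum of the 56 genes, which the shares leave out, and their phases differed. Of the 803 vehicle cells 468 were G2M-called and 326 S-called, and of the 57 treated cells 34 and 23.

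By the authors' 6 clusters, the summed level was lower in the cytokine library in each. In cluster 2, which held no G1-called vehicle cell, it was 4282 CPM in 740 vehicle cells and 2514 CPM in 284 treated cells. In cluster 5 it was 3933 CPM in 407 and 1432 CPM in 134 cells, and in cluster 0 it was 2337 CPM in 283 and 577 CPM in 1100 cells. TOP2A was at 105 and 28.1 CPM in cluster 2 and at 32.3 and 0.168 CPM in cluster 0, and PLK1 at 40.3 and 20.3 CPM and at 28.3 and 0.461 CPM. All 40 G2M-called treated cells were in cluster 2 (26 cells) or cluster 5 (14 cells), while vehicle G2M-called cells were in all 6 clusters. The phase mix within a cluster differed, with 200 of 740 vehicle cells and 26 of 284 treated cells of cluster 2 G2M-called, and among these the treated cells had the higher sum, as given above. The clusters were drawn from the expression of the same cells, so these values are a description.

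**Figure D5:**
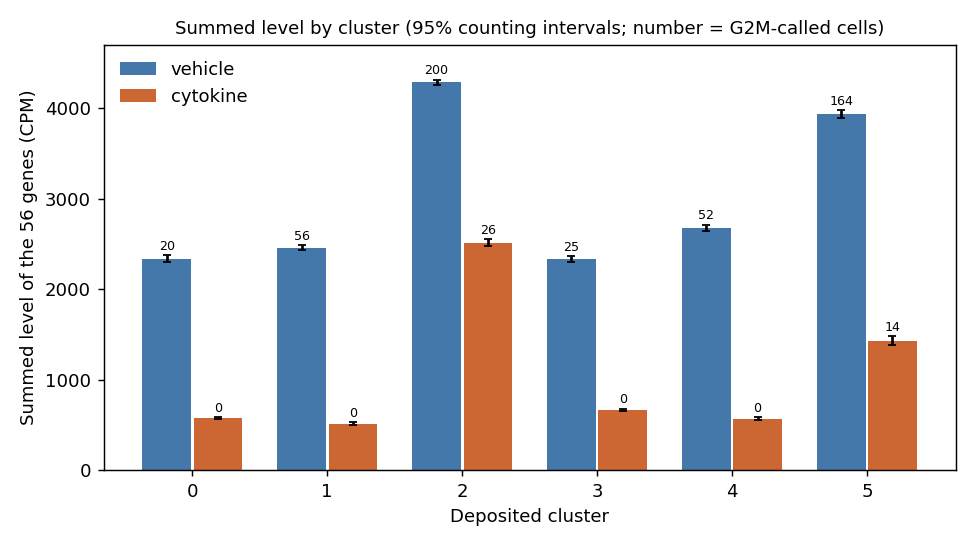
Summed CPM of the 56 genes (vertical axis) in each deposited cluster for the vehicle and cytokine libraries, with 95% counting intervals and the number of G2M-called cells above each bar. The vehicle bar is the higher in all 6 clusters, and in clusters 0, 1, 3 and 4 no treated cell was G2M-called.

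Other genes of the cycle were counted from lists outside the 56, set beside the same 6.5% of all genes. Of 50 other mitotic genes, 44 were at least 2-fold lower over all cells, with a median log2 ratio of -2.60. Among those at a mean CPM of 5 or more, which holds for each list here, the lowest were the mitotic kinesins KIF20A (10.3 CPM in vehicle cells and 0.517 CPM in treated cells) and KIF14 (13.8 and 0.718 CPM) and the checkpoint kinase BUB1B (16.2 and 1.39 CPM). CCNB1, the main mitotic cyclin, was at 50.2 and 9.20 CPM (log2 ratio -2.45, -2.58 to -2.33). At the high end were JPT1 (1918 and 1458 CPM), the kinesin KIF22 (127 and 103 CPM) and the checkpoint protein BUB3, at 184 and 209 CPM. Of 43 S phase genes, 39 were at least 2-fold lower, with a median of -1.97. RRM2, a subunit of ribonucleotide reductase, was at 137 and 14.7 CPM, the exonuclease EXO1 at 14.1 and 1.78 CPM and the recombination factor RAD51AP1 at 40.7 and 5.65 CPM. UBR7 (24.9 and 14.1 CPM), TIPIN (18.3 and 11.2 CPM) and MRPL36 (154 and 128 CPM) differed least. In S-called cells 1 of the 43 S phase genes was at least 2-fold lower, against 1.76% of 8849 genes in those cells. Their median was -0.24, where the median was -0.15 over those 8849 genes and -0.86 for the 56 G2 and M genes. The difference between both lists was not tested. S phase genes may have entered the deposited S phase call, whose gene list is not given.

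Of 17 regulators of these genes, 9 were at least 2-fold lower. FOXM1 was at 52.5 CPM in vehicle cells and 5.55 CPM in treated cells (log2 ratio -3.24, -3.40 to -3.09). MYBL2 was at 199 and 23.0 CPM (-3.11, -3.19 to -3.04). LIN9, a MuvB subunit shared by the activating and repressing complexes, was at 9.92 and 1.91 CPM. The DREAM pocket protein RBL2 was at 19.7 and 20.7 CPM, the NF-Y subunit NFYC at 30.7 and 35.4 CPM, and the MuvB subunit LIN37 at 9.27 and 12.1 CPM.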

How the data were processed

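UMI counts came from Cell Ranger 3.1.0 with the GRCh38 build, cells and genes were filtered in Seurat 4.0.4, and the authors deposited the counts unnormalized, with phase scores, phase calls and clusters per cell. The deposited score of G2M and the percent of mitochondrial UMIs (at most 14.98% in a cell) were used as the authors gave them. Settings of the clustering and the phase gene lists are not given in the sources used here. No doublet caller was run here and no doublets were removed, and their treatment by the authors is not given in the sources used here beyond the limit on genes per cell. Cells were assigned to libraries by the sample column of the cell table. UMIs were summed per library, and per phase or cluster, and divided by the total UMIs to give CPM. Log2 ratios have exact conditional binomial intervals, CPM Poisson intervals and shares Clopper-Pearson intervals, all at 95%. Genes counted as lower or higher at 2-fold or more with the interval on that side. The background was every gene at mean CPM 5 or more. Cells were thinned to 15000 UMIs, leaving out 236 vehicle and 130 treated cells, and phases without the 56 genes were called with scanpy 1.11.5. In simulated counts of 8885 genes at the depth of all cells, 50 of 50 genes were recovered at each of 4 folds and no unchanged gene was called. At G2M depth, of 8880 genes, 99 unchanged genes were called.

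Named genes were, in each phase, the 5 lowest and 5 highest ratios among genes with 30 UMIs or more, the 2 highest levels of each of 9 role groups, 5 genes outside the Seurat list, and the 3 lowest and 3 highest of each further list among genes at mean CPM 5 or more. CDK1, AURKB, BUB1, CENPA and MKI67 fell outside this rule and were named after their values were seen. The 56 genes, the lists and the comparisons were chosen with earlier results of these data known. Alternatives used edgeR and DESeq2 scaling factors. In GENCODE 44, 20 of the 56 genes have pseudogenes named after them (TUBB4B 8, CKS1B 7, UBE2C 5), with which reads could be shared.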

Additional observations from a re-analysis of the deposited data

How the results depend on the processing

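With 1 library per condition, no setting could leave out a replicate. No paired analysis was possible because each condition was 1 library and no test was made. Over all cells the count of genes at least 2-fold lower stayed between 52 and 55 of 56 under TMM, median-of-ratios, totals without ribosomal and mitochondrial genes, UMIs per cell, mean per-cell CPM, a mitochondrial limit of 10% and a 1.5-fold limit. Of these settings, the share of all genes was computed only for the mitochondrial limit (6.55%). TMM moved all log2 ratios over all cells by 0.18. The summed log2 ratio over all cells was -1.83 under TMM, -1.82 under median of ratios, -2.06 without ribosomal and mitochondrial genes, -1.92 as UMIs per cell and -1.96 as mean per-cell CPM. In G2M-called cells it was -0.10 under TMM, -0.089 under median of ratios, -0.13 without those genes, -0.11 as UMIs per cell, -0.022 as mean per-cell CPM, -0.043 under the mitochondrial limit and -0.72 in phases called without the 56 genes. Counting only genes at a mean CPM of 20 or more left 24 of 26 lower over all cells (4.99% of all genes at that level). It left 6 of 13 in G1 (2.26%) and 8 of 27 in S (1.07%). A mean CPM of 5 or more, an alternative chosen after seeing the data, left 17 of 27 in G1 (3.63%). The 1.5-fold limit gave 40 in S and 8 in G2M, and the share of all genes was not computed at that limit. Phases called without the 56 genes gave 21 in G2M (2.36%). The mitochondrial limit gave 2 in G2M, without PIMREG (2.2% of all genes at a mean CPM of 5 or more). The cause was not tested.

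G2M shares were 52.0% of vehicle and 5.54% of treated cells when called without the 56 genes. Shares of cells at the limit were 42.4% and 3.86% without thinning, 61.7% and 5.70% at a limit of 25, and 10.8% and 0.593% at a limit of 100. The core promoter motif occurred in 55.3% of member promoters within the 250 bases before the start. Under phases called without the 56 genes, 8 values turned direction among named genes whose interval lay on 1 side of 0. These 8 were TUBB4B in G1 (0.31) and, in G2M, TUBB4B (-0.10), ECT2 (-0.38), CDC20 (-0.50), NEK2 (-0.54), NUF2 (-0.51), CCNB2 (-0.16) and UBE2C (-0.57). Further genes whose interval spanned 0 also changed sign, since 39 of the 56 ratios in G2M were below 0 in the deposited phase and all 56 in the other call. PIMREG could not be given in G1 cells called without the 56 genes, where the treated cells had 0 UMIs. No named gene with an interval on a side of 0 turned direction under the other alternatives. The median width of the log2 intervals was 0.861 in G1, 0.652 in S and 0.753 in G2M, so counting error limited the G1-called cells most.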

Other observations

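UMIs of cytokine response genes were counted in the treated cells with high levels of the 56 genes. Free RNA in the droplets was not estimated, and its part in these values was not tested. In treated cells with 50 or more UMIs of the 56 genes (57 cells), S100A9, a calcium-binding protein of inflammation, was at 2176 CPM, NFKBIA, the inhibitor induced by NF-κB, at 1171 CPM and TDO2, which opens tryptophan breakdown, at 485 CPM. In treated cells with under 25 such UMIs (2860 cells) they were at 4898, 1070 and 573 CPM. In vehicle cells with 50 or more they were at 3.61, 77.8 and 10.1 CPM. Of the 57 treated cells 47 were in cluster 2 and 10 in cluster 5. Within cluster 2 the difference in S100A9 was smaller, 1743 CPM in 47 cells against 2502 CPM in 127 cells (867 and 1361 CPM in the median cell). Within cluster 5 S100A9 was at 4654 CPM in 10 cells against 4720 CPM in 90 cells. The median cell of cluster 5 went the other way, at 5397 against 3524 CPM. The order of the other genes differed by cluster. In cluster 2 NFKBIA was at 1195 CPM against 880.4 CPM and TDO2 at 464 against 411 CPM (291 and 98.1 CPM in the median cell). In cluster 5 NFKBIA was at 1036 against 1194 CPM and TDO2 at 605 against 664 CPM (291 and 281 CPM in the median cell). These values come from 1 culture and were not tested.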
